A study of Mus musculus with 6 samples.

Results

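Kinesins are motor proteins that walk along microtubules or take them apart. Mitotic kinesins build the spindle, move and align chromosomes and divide the cell, and their transcripts are known to peak in the G2 and M phases of the cell cycle. Transport kinesins carry organelles, vesicles and protein complexes in cells that divide and in cells that do not. In T cells microtubule motors also serve the reorientation of the centrosome toward the immune synapse.

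The genes described here are those whose symbol begins with Kif and a digit in the deposited count table, 38 of its 23366 gene rows. They were grouped by known role into 11 mitotic kinesins, 15 transport kinesins, 3 microtubule depolymerases of the kinesin-13 family other than the mitotic Kif2c, and 8 genes of cilia or signalling. The pseudogene Kif4-ps stood in no class. The classes were drawn with earlier results of these data known, and Kif2a, placed outside the mitotic class, also acts at spindle poles. RNA was sequenced from mouse CD4+ effector T cells (FVB/N strain background) recovered 6 weeks after transfer from mesenteric lymph nodes of recipients that lack Rag and so cannot make lymphocytes with antigen receptors themselves. Cells were sorted by rhodamine 123 (Rh123), a dye that the transporter Mdr1 expels. The Mdr1+ group is the fraction with low dye signal and the Mdr1- group the fraction with high dye signal, with 3 libraries each. The groups are thus defined by efflux in the sort, and the labels describe no deletion or added agent. Whether the libraries of a group are from different mice is not stated in the labels, and the p-values below therefore reflect the spread among these libraries, which may be technical.

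Libraries held 2220691 to 20771456 counts in genes, and Mdr1+ replicate 3 was the shallowest. Levels are given as CPM, counts scaled to library size with TMM factors, on which 3 counts correspond to 0.14 to 1.41 CPM depending on the library. Abcb1a, a gene for Mdr1, was at 162 ± 26.3 CPM in Mdr1+ against 62.8 ± 18.0 CPM in Mdr1- libraries (SD, n = 3 each), and was higher in each Mdr1+ library than in any Mdr1- library. Abcb1b, another gene for Mdr1, overlapped between groups. It was at 139, 41.6 and 101 CPM in Mdr1+ and at 75.9, 25.1 and 66.2 CPM in Mdr1- replicates 1, 2 and 3. Its log2 fold change of 0.75 did not pass (edgeR adjusted p = 0.62), and with the replicate number as a block it did (edgeR adjusted p = 0.0046). The 8 T cell markers summed to 5454 to 6213 CPM in Mdr1+ and 5424 to 6266 CPM in Mdr1- libraries, with 0 of 8 past the test, the highest being Cd28, Cd4 and Cd5. Cd8a and Cd8b1, which mark CD8 T cells, summed to at most 2.21 CPM in any library, and the B cell marker Ms4a1 was at 0 in 4 of the 6 libraries. Cd79a, another B cell marker, was at 11.3 CPM in Mdr1+ replicate 3 and at 0.173 to 3.06 CPM in the other 5 libraries, and Cd79b was at 0.509 to 2.33 CPM. The 6 myeloid markers summed to 99.7 CPM in Mdr1- replicate 3 and to 10.2 to 24.1 CPM in the other 5 libraries, where Cd68 made up most of the sum. Il1b and Cd14 were at 36.7 and 23.6 CPM in Mdr1- replicate 3 and at most at 3.77 CPM elsewhere. Lyz2 was at 0.332, 0.140 and 1.41 CPM in Mdr1+ and at 1.67, 0.432 and 14.6 CPM in Mdr1- replicates 1, 2 and 3, lower in Mdr1+ in each of the 3 replicate numbers (edgeR adjusted p = 0.32, and 0.046 with the replicate number as a block). Csf1r, at 0 in all Mdr1+ libraries, and Itgam, at 0 to 0.498 CPM there, lay below their Mdr1- libraries, at 0.223 to 5.09 and 0.865 to 2.21 CPM. These 3 had lower means in Mdr1+ libraries, as the mitotic kinesins did, but Lyz2 overlapped between groups. Csf1r rested on 2 and 3 counts in Mdr1- replicates 1 and 2. Cd68 went the other way and overlapped, at 13.8 ± 3.59 CPM in Mdr1+ against 12.4 ± 4.56 CPM in Mdr1- libraries (SD, n = 3 each). The part of myeloid cells in the kinesin results was not tested beyond leaving Mdr1- replicate 3 out.

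Most mitotic kinesin transcripts were lower in Mdr1+ cells, and no transport kinesin transcript passed the test. Of the 11 mitotic members, all of which could be tested, 9 fell in edgeR's quasi-likelihood test (adjusted p under 0.05 over 10897 genes), where 1.95% of all tested genes fell. Of 12 tested transport members 0 were called in either direction, where 2.22% of all tested genes were called. No kinesin rose, where 0.275% of all tested genes rose. The median log2 fold change of Mdr1+ over Mdr1- was -2.53 for the mitotic and 0.04 for the tested transport members, beside 0.04 for all tested genes. All 11 mitotic members had no overlap between groups, each Mdr1+ library lying below each Mdr1- library, as in 11% of all tested genes. In these sorted bulk samples, fewer dividing cells and less of each transcript per cell cannot be told apart.

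The number of calls depended on which replicates were kept. With both libraries of replicate 1 left out, edgeR called 8 of 11 mitotic kinesins and 111 of 11081 genes. Without both libraries of replicate 3 edgeR called 0 of 11177 genes and 0 mitotic kinesins, although 904 genes and 9 mitotic kinesins had an unadjusted p under 0.05 and DESeq2 called 298 genes and 9 kinesins, 8 mitotic ones and Kif24. Without both libraries of replicate 2 the count was 4 of 11, where 48 of 10707 genes were called. Without Mdr1- replicate 3, the library with most myeloid transcripts, it was 6 of 11, where 76 of 11218 genes were called, and the median was -2.59.

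Kif11 makes the tetrameric motor that pushes spindle poles apart. Its transcript was at 64.1, 37.7 and 49.0 CPM in Mdr1+ replicates 1, 2 and 3, and at 166, 223 and 223 CPM in Mdr1- replicates 1, 2 and 3. The highest Mdr1+ library, replicate 1, lay far below the lowest Mdr1- library, also replicate 1, with a log2 fold change of -2.02 ± 0.24 (SE, edgeR adjusted p = 0.0043). Kif15, a motor that keeps a bipolar spindle open together with Kif11, was at 15.5, 14.6 and 16 CPM in Mdr1+ and at 80.7, 141 and 137 CPM in Mdr1- libraries. Its Mdr1+ libraries lay close together, and its log2 fold change of -2.97 ± 0.25 was, with that of Kif4, the lowest among kinesins (edgeR adjusted p = 0.0027).

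Chromokinesins bind chromosome arms. Kif4, which also sets the length of the spindle midzone with Prc1, was at 13.3, 11.8 and 8.49 CPM in Mdr1+ and at 61.5, 114 and 97.0 CPM in Mdr1- libraries. That is a log2 fold change of -2.98 ± 0.28 (edgeR adjusted p = 0.0037), 7.87-fold lower in Mdr1+ cells. Kif22, which pushes chromosome arms away from the poles, was at 6.98, 9.91 and 8.49 CPM in Mdr1+ and at 25, 65.8 and 51.6 CPM in Mdr1- libraries. The lowest Mdr1- library, replicate 1, was still above all Mdr1+ libraries, and Kif22 fell by 2.47 on the log2 scale (SE 0.37, edgeR adjusted p = 0.011).

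Other members act at microtubule ends. Kif2c, the kinesin-13 depolymerase that corrects faulty attachments of chromosomes to the spindle, was at 3.66, 3.83 and 8.96 CPM in Mdr1+ and at 20.1, 51.4 and 35.8 CPM in Mdr1- libraries (log2 fold change -2.87 ± 0.46, edgeR adjusted p = 0.015). Kif18b, which shortens the microtubules that reach toward the cell cortex, was at 6.31, 8.04 and 8.96 CPM against 25.9, 78.1 and 47.5 CPM (log2 fold change -2.72 ± 0.41, edgeR adjusted p = 0.011). Kif18a, which damps the swing of chromosomes at the metaphase plate, was spread more widely in Mdr1+ cells. It was at 28.9, 12 and 5.19 CPM in Mdr1+ replicates 1, 2 and 3, the last resting on 11 counts, and at 39.6, 30.2 and 32.8 CPM in Mdr1- libraries. Its log2 fold change of -1.10 ± 0.47 did not pass (edgeR adjusted p = 0.39), and with the replicate number as a block it did (-1.24, edgeR adjusted p = 0.035). Without Mdr1+ replicate 1, its highest Mdr1+ library, the log2 fold change was -1.90 and passed without the block (edgeR adjusted p = 0.049). In the fit with the block, which kept all libraries, 10 of 11 mitotic members fell, where 6.57% of all tested genes fell. There 0 kinesins rose, where 5.81% of all tested genes rose. Among the transport members 0 of 12 were called in that fit, where 12.4% of all tested genes were called in either direction.

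The log2 fold changes of the 4 motors of cytokinesis ran from -2.81 to -0.77. Kif14, which binds citron kinase at the midbody, was at 8.14, 7.01 and 10.4 CPM in Mdr1+ and at 34.7, 75.2 and 61.6 CPM in Mdr1- libraries (log2 fold change -2.81 ± 0.33, edgeR adjusted p = 0.0043). Kif20a, which brings the chromosomal passenger complex to the midzone, was at 12.5, 11 and 13.7 CPM against 44.1, 102 and 64.5 CPM (log2 fold change -2.53 ± 0.32, edgeR adjusted p = 0.0058). In both, Mdr1- replicate 1 was the lowest Mdr1- library and lay well above Mdr1+ replicate 3, the highest Mdr1+ library.

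Kif20b, needed late in cytokinesis, was at 29.2, 25.3 and 19.8 CPM in Mdr1+ and at 45.2, 62.9 and 62.8 CPM in Mdr1- libraries, a log2 fold change of -1.18 ± 0.23 (edgeR adjusted p = 0.031). When single libraries or whole replicate numbers were dropped, its call was kept in 1 of 9 edgeR fits, that without Mdr1- replicate 1, with adjusted p of 0.031 to 0.35. Kif23 makes the motor subunit of centralspindlin, which organises the midzone with Racgap1. It was at 84.9, 22.2 and 90.5 CPM in Mdr1+ replicates 1, 2 and 3 and at 111, 97.2 and 123 CPM in Mdr1- libraries. Mdr1+ replicates 1 and 3 lay just below the Mdr1- range and replicate 2 far below it, and Kif23 was the mitotic member with the smallest difference, at -0.77 ± 0.44 (edgeR adjusted p = 0.56, and 0.063 with the block). The 95% interval for Kif23 was -1.76 to 0.21. Without Mdr1+ replicate 2 the log2 fold change of Kif23 was -0.33.

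**Figure D1:**
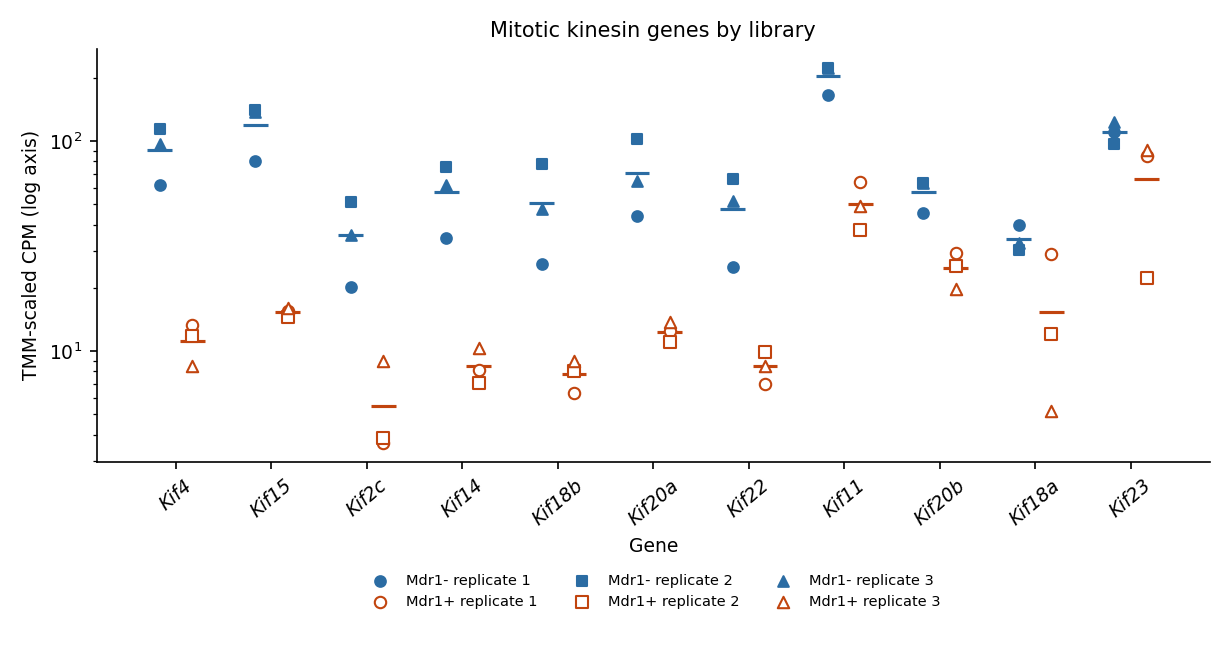
TMM-scaled CPM (y axis, log scale) of the 11 mitotic kinesin genes (x axis, ordered by log2 fold change) in each library; filled symbols are Mdr1- and open symbols Mdr1+ libraries, shapes are replicate numbers, and bars are means of 3 libraries. Mdr1+ lies below Mdr1- for every gene, widest at Kif4 and Kif15 and narrowest at Kif23, where Mdr1+ replicates 1 and 3 are at 84.9 and 90.5 CPM.

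Since the mitotic members moved together, the DNA around their starts was searched for elements of cell cycle promoters. The cell cycle genes homology region (CHR), TTTGAA, is the site bound by the DREAM and B-Myb complexes that time G2 and M phase genes, and it often stands near a CCAAT box, CCAAT, the site of NF-Y. RefSeq windows of 250 bases before to 50 bases after the start (build GRCm38.p6) were at hand for 31 of 38 members, among them 10 mitotic and 8 tested transport members. No window was at hand for Kif20a, a mitotic member that fell, or for the tested transport members Kif21b, Kif5b, Kif13b and Kif5a. Both strands were searched, and the CHR and CCAAT letters overlapped in none of the stretches shown. TTTGAA was found in 9 of 10 mitotic and 0 of 8 transport members, and in 17.9% of all 32851 windows. The exception among mitotic members was Kif18a. Among members too low to test, Kif1a, a transport kinesin, had a match at -44 in 1 of its windows, and Kif26b and Kif27 had matches too. CCAAT was found in 6 of 10 mitotic and 3 of 8 transport members, and in 37.4% of all windows.

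The 5 mitotic and 3 transport members with the highest mean CPM among those with a window are shown from 90 bases before to 30 bases from the start, on the strand of the gene. Capitals mark TTTGAA or its reverse complement TTCAAA, and CCAAT or its reverse complement ATTGG. The stretches are at chr19:37376292-37376411 (+) for Kif11, chr9:61946770-61946889 (-) for Kif23, chr9:122950991-122951110 (+) for Kif15, chrX:100625975-100626094 (+) for Kif4, chr19:34922268-34922387 (+) for Kif20b, chr4:149307704-149307823 (-) for Kif1b, chr2:49619196-49619315 (+) for Kif5c and chr2:153291326-153291445 (+) for Kif3b.
Kif11: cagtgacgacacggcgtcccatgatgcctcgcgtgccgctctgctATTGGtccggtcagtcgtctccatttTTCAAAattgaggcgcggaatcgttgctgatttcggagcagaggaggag
Kif23: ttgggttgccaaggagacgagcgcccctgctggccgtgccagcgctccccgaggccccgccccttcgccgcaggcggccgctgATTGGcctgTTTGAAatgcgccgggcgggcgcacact
Kif15: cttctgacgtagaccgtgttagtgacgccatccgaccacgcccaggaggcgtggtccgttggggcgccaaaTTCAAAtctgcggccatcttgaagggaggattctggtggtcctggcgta
Kif4: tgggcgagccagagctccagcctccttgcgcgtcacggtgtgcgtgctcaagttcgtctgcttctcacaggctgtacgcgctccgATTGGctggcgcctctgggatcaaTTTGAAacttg
Kif20b: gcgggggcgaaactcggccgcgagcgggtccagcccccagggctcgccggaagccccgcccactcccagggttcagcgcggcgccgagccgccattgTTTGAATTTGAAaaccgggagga
Kif1b: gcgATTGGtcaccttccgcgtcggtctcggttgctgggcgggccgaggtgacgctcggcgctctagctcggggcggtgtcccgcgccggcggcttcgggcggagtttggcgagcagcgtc
Kif5c: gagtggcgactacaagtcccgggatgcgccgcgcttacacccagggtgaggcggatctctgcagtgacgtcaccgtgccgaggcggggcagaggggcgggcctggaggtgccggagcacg
Kif3b: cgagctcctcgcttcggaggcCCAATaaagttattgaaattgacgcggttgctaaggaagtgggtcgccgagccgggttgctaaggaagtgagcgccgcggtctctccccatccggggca

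Counted from the start, with negative positions upstream, the CHR letters began at -19 in Kif11 and Kif15, at -17 in Kif22, at 3 in Kif23, at 4 in Kif18b, at 8 and 14 in Kif20b and at 20 in Kif4. These 7 of 10 mitotic members had a match that began within 30 bases of the start, a distance chosen after the positions were seen, and 3.14% of all windows had one. In Kif14 and Kif2c the matches lay farther upstream, at -228 and -103. The related letters TTTAAA were in those same genes, at -42 and -234, in 0 of 8 transport members and in 13.2% of all windows. The E2F site, searched as TTTCCCGC, TTTCGCGC, TTTGCCGC and TTTGGCGC, was in Kif15 and Kif18a, in 0 of 8 transport members and in 2.26% of all windows. Kif18a, with an E2F match and no CHR match, did not pass the test, and neither did Kif23, which had a CHR match at 3. The matches are letters in a reference sequence, and no binding was measured.

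**Figure D2:**
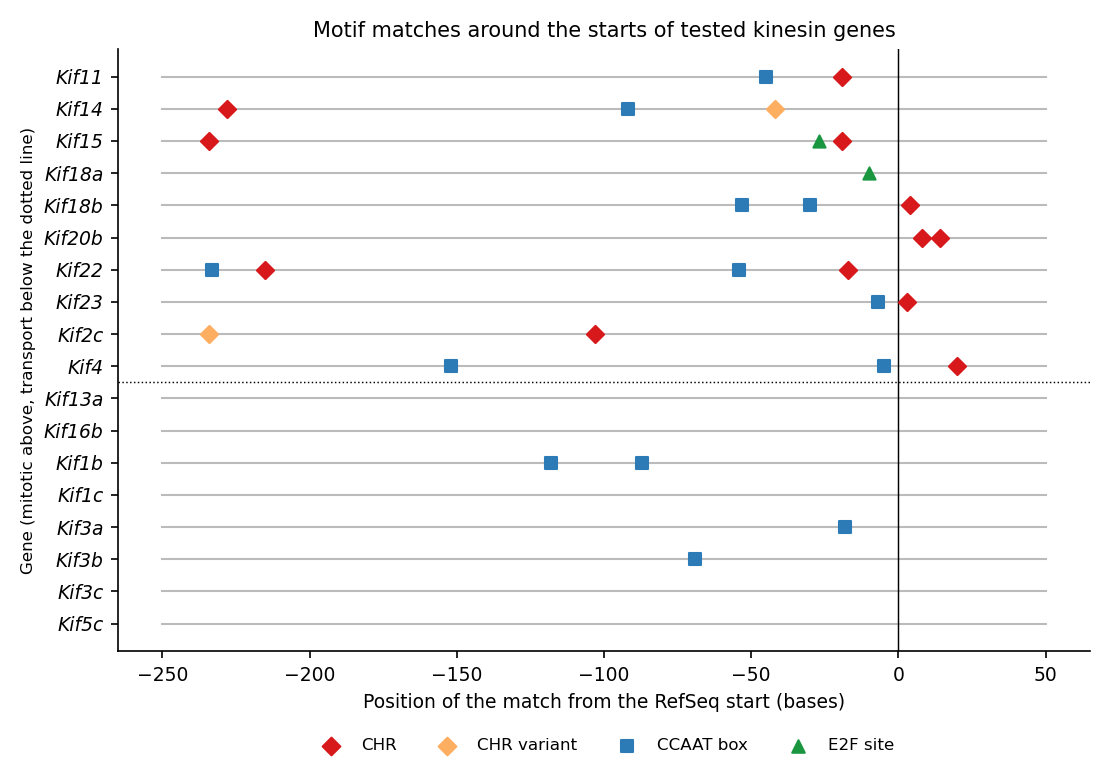
First base of each motif match (x axis, bases from the RefSeq start) in the windows of 10 mitotic and 8 tested transport kinesin genes (y axis, one line per gene, first window listed per gene); symbols are the CHR, its variant, the CCAAT box and the E2F site. CHR matches appear in 9 mitotic and 0 transport genes, and 7 of the 9 have one within 30 bases of the start.

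Kif21b makes a motor that limits microtubule growth and is known for its part in moving the centrosome in T cells. It was at 807, 1087 and 1007 CPM in Mdr1+ and at 747, 951 and 832 CPM in Mdr1- libraries, and the groups overlapped (log2 fold change 0.20 ± 0.19, edgeR adjusted p = 0.75). In level per kilobase of annotated exon Kif21b stood highest among kinesins in both groups, with a mean of 106 CPM per kilobase in Mdr1+ against 92.5 in Mdr1- libraries. On that scale Kif5b followed at 65.3 and 60.2, and the mitotic Kif11 was at 10.4 in Mdr1+ and 42.3 in Mdr1- cells.

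Kinesin-1 motors carry many cargoes, among them mitochondria and lysosomes. Kif5b, its broadly expressed heavy chain gene, was at 449, 336 and 397 CPM in Mdr1+ and at 402, 312 and 375 CPM in Mdr1- libraries (log2 fold change 0.12 ± 0.18, edgeR adjusted p = 0.86). Kif5c was at 110, 98.8 and 121 CPM against 101, 86.6 and 120 CPM. Both genes overlapped between groups, and replicate 2 was lowest on each side. Kif5a, a heavy chain known from neurons, was under 3 CPM in every library and at 0 in Mdr1+ replicate 3. Its Mdr1+ libraries lay below its Mdr1- libraries, and its log2 fold change of -0.99 ± 0.69 did not pass (edgeR adjusted p = 0.65).

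The kinesin-3 family carries vesicles, endosomes and mitochondria. Kif1b was at 267, 198 and 324 CPM in Mdr1+ and at 279, 239 and 319 CPM in Mdr1- libraries, and Kif13b, a carrier of membrane proteins, was at 151, 146 and 125 CPM against 153, 121 and 150 CPM. Neither differed between groups beyond its spread, with log2 fold changes of -0.09 ± 0.22 and 0.00 ± 0.17 (edgeR adjusted p = 0.91 and 1.00). Kif16b, which moves early endosomes, was the transport gene with the highest log2 fold change. It was at 66.8, 68.6 and 80.6 CPM in Mdr1+ and at 60.4, 56.3 and 57.4 CPM in Mdr1- libraries, so that the groups did not overlap, as in 8.71% of all tested genes in this direction. Its log2 fold change of 0.31 ± 0.17 did not pass without the block (edgeR adjusted p = 0.54) or with it (0.15). Kif1c, at 58.5, 84.3 and 119 CPM against 55.1, 87.2 and 81.7 CPM, overlapped between groups, and Kif13a was under 3 CPM in every library.

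Kinesin-2 motors carry cargo along the cilium and in the cytoplasm. Kif3a, Kif3b and Kif3c had means of 16.8, 79.1 and 36.4 CPM in Mdr1+ and 18.2, 84.3 and 35.0 CPM in Mdr1- cells. Their log2 fold changes were -0.14 ± 0.26, -0.09 ± 0.20 and 0.07 ± 0.21, and all 3 overlapped between groups. Over the 10 transport members with counts in every library, the 95% intervals of the log2 fold change ran from -0.72 (Kif3a) to 0.84 (Kif1c). The data thus leave room for changes up to those bounds.

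**Figure D3:**
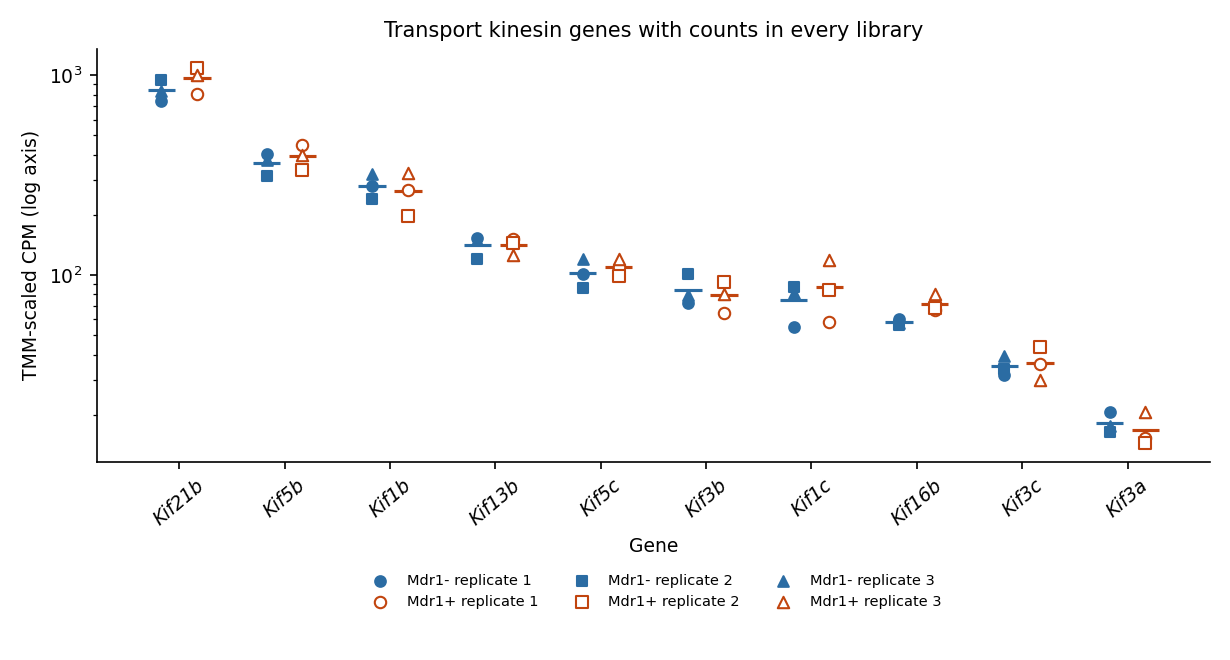
TMM-scaled CPM (y axis, log scale) of the 10 transport kinesin genes with counts in every library (x axis, ordered by mean level); filled symbols are Mdr1- and open symbols Mdr1+ libraries, shapes are replicate numbers, and bars are means of 3 libraries. Groups overlap for 9 of the 10 genes, the exception being Kif16b.

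Depolymerases outside the mitotic class gave no calls in edgeR. Kif2a, which acts at spindle poles and in neurons, was at 60.6, 45.8 and 56.1 CPM in Mdr1+ and at 60.6, 41.7 and 62.7 CPM in Mdr1- libraries, a log2 fold change of -0.02 ± 0.22. Kif24, a centriole protein that holds back cilium formation, was at 2.82, 2.43 and 7.07 CPM against 6.81, 10.3 and 10.2 CPM (log2 fold change -1.31 ± 0.49, edgeR adjusted p = 0.31, and 0.064 with the block). Mdr1+ replicate 3 overlapped the Mdr1- libraries for Kif24, and without it the log2 fold change was -1.82 (edgeR adjusted p = 0.063). Without both libraries of replicate 3 it passed in DESeq2 (-1.73, DESeq2 adjusted p = 0.0498) and not in edgeR (adjusted p = 0.25). Kif7, a regulator of Hedgehog signalling, was the 1 tested gene of cilia or signalling, at 5.09 ± 2.97 and 6.38 ± 1.31 CPM (SD, n = 3 each).

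The other 12 of 38 members were too low to test. Kif2b and Kif6 had 0 counts in all 6 libraries, which allows up to 0.14 CPM in the deepest and 1.41 CPM in the shallowest library, by counting error only. Kif12, Kif27 and Kif4-ps each had 1 count over all libraries together, Kif26b and Kif21a each had 3, and Kif1a, Kif17, Kif26a, Kif9 and Kif19a stayed under 2 CPM in every library.

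**Figure D4:**
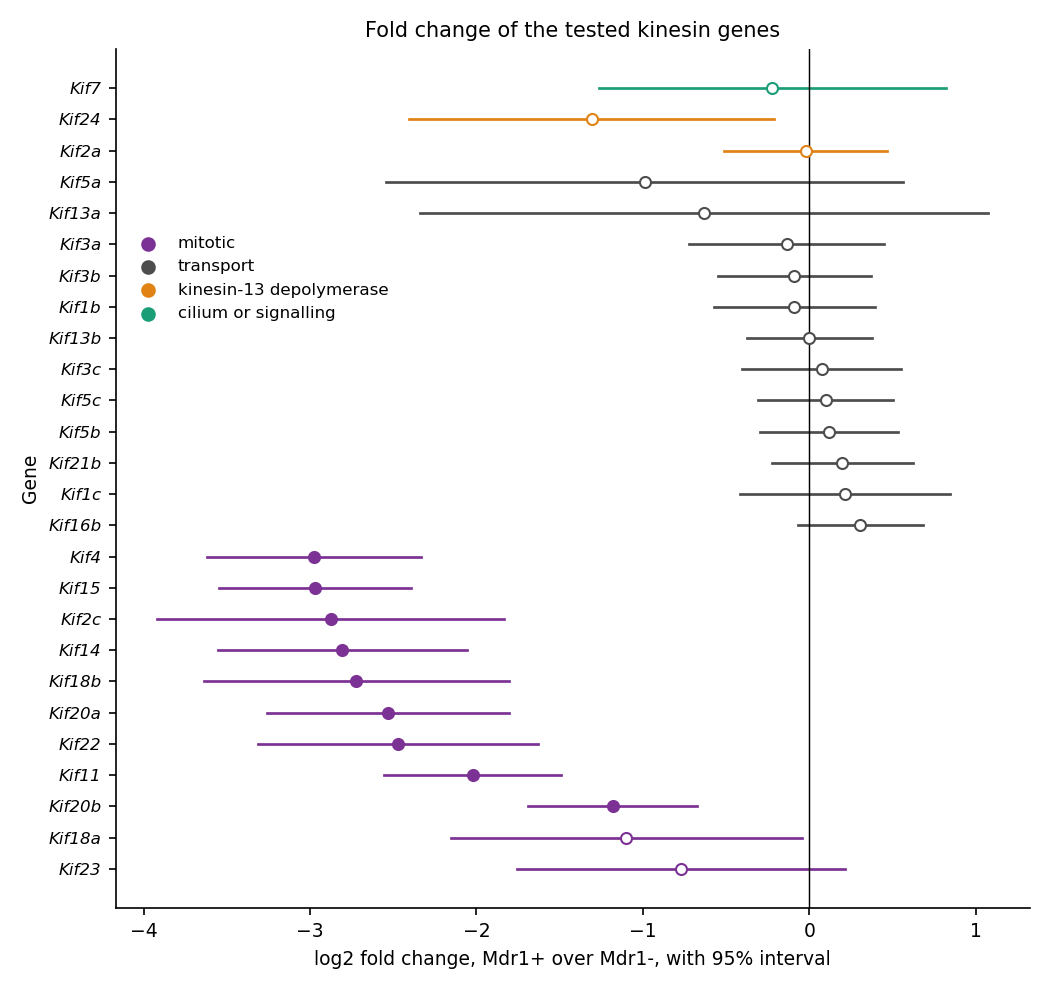
Log2 fold change of Mdr1+ over Mdr1- (x axis) with its 95% interval for the 26 tested kinesin genes (y axis), coloured by class; filled symbols passed an adjusted p of 0.05 in edgeR without the block. The 9 filled symbols are all mitotic, from -2.98 to -1.18, and the transport genes lie around 0 with the widest intervals at the low genes Kif5a and Kif13a.

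Several kinesin families hold members of the mitotic class and others. Ratios between family members within a library do not depend on the scaling between libraries. In the kinesin-13 family the ratio of Kif2c to Kif2a was 0.060, 0.084 and 0.16 in Mdr1+ and 0.33, 1.23 and 0.57 in Mdr1- libraries, a difference of -2.73 ± 0.69 on the log2 scale (SE). In the kinesin-4 family the ratio of Kif4 to Kif21b was 0.016, 0.011 and 0.0084 against 0.082, 0.12 and 0.12, a difference of -3.19 ± 0.33. In the kinesin-3 family the ratio of Kif14 to Kif1b was 0.030, 0.035 and 0.032 against 0.12, 0.31 and 0.19, a difference of -2.59 ± 0.39. These 3 ratios pair a gene of the mitotic class with one outside it, and none overlapped between groups.

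The remaining pairs each hold 2 mitotic genes. Kif20a to Kif20b, of the kinesin-6 family, was 0.43, 0.43 and 0.69 against 0.98, 1.62 and 1.03, a difference of -1.22 ± 0.33 on the log2 scale with no overlap. Kif18b to Kif18a, of the kinesin-8 family, was 0.22, 0.67 and 1.73 against 0.65, 2.59 and 1.45, which overlapped (-1.09 ± 1.04). Over the 5 pairs, a two-sided exact permutation test gave p = 0.1 (adjusted p = 0.125) for the 4 ratios without overlap and p = 0.5 for Kif18b to Kif18a. With 3 libraries against 3, the smallest p that this exact test can give is 0.1. The mitotic class was chosen with earlier results known, and the first gene of each pair lay lower in Mdr1+ without overlap. The ratios therefore partly describe the same values again, and no conclusion is drawn from this test.

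**Figure D5:**
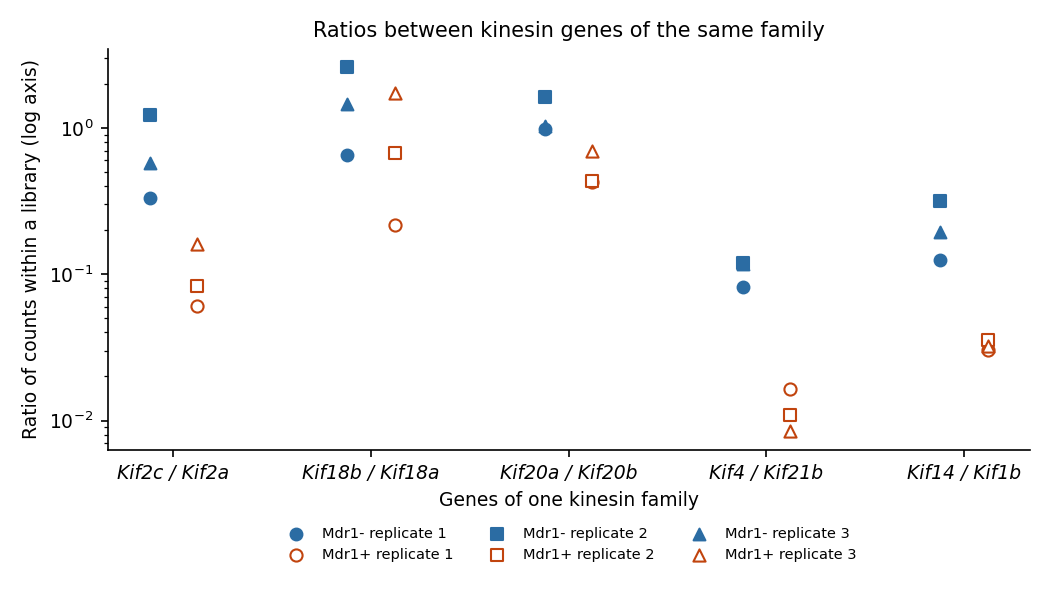
Ratio of the counts of 2 kinesin genes of one family within each library (y axis, log scale) for 5 gene pairs (x axis); filled symbols are Mdr1- and open symbols Mdr1+ libraries, and shapes are replicate numbers. Mdr1+ ratios are below all Mdr1- ratios for 4 pairs and overlap them for Kif18b to Kif18a.

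As a share of all reads in the 38 genes, mitotic members made up 11.5%, 6.83% and 9.18% in Mdr1+ replicates 1, 2 and 3 and 24.6%, 33.4% and 30.2% in Mdr1- replicates 1, 2 and 3. The Wilson 95% interval of the shallowest library was 8.45% to 9.97%. The groups did not overlap, with means of 9.18% ± 2.35 and 29.4% ± 4.47 (SD, n = 3 each). The class was chosen with earlier results known, and each of its members lay lower in Mdr1+ without overlap. The share therefore describes the same values again, and no test of it is given. Summed CPM of the mitotic members was 163 to 273 in Mdr1+ and 653 to 1041 in Mdr1- libraries, whereas that of the transport members was 2030 to 2305 and 1927 to 2076.

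Most genes whose proteins work with mitotic kinesins were also lower in Mdr1+ cells. Of 18 listed partners 15 fell without the block and 18 with it, beside 1.95% and 6.57% of all tested genes, and their median log2 fold change was -2.21. Racgap1, the partner of Kif23 in centralspindlin, was at 56.6 ± 5.06 CPM in Mdr1+ against 140 ± 31.4 CPM in Mdr1- libraries (SD, n = 3 each; edgeR adjusted p = 0.014). Prc1, which recruits Kif4, fell by 1.25 on the log2 scale, Cit, the citron kinase bound by Kif14, by 2.16, and Tpx2, a spindle assembly factor that binds Kif11 and Kif15, by 2.55.

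The kinases and passenger proteins Plk1 (-3.10), Aurkb (-2.82), Birc5 (-2.86), Cdca8 (-3.27) and Incenp (-1.20) fell, as did Ect2 (-2.19), Anln (-2.33), Nusap1 (-2.23), Hmmr (-3.22), Mki67 (-2.54) and Ckap5 (-0.88), all log2 fold changes. Cdca8 had 0 counts in Mdr1+ replicate 3. Aurka, Ndc80 and Ckap2 passed with the block only (edgeR adjusted p = 0.030, 0.014 and 0.041). Among the 5 kinesin-related motors named outside the Kif series, Cenpe, the kinetochore motor that brings chromosomes to the plate, was lower in Mdr1+ libraries, at 25.3 ± 7.56 against 133 ± 44.7 CPM (SD, n = 3 each; edgeR adjusted p = 0.0059). Kifc1, Kifc2 and Kifc3, motors of the C-terminal type, had log2 fold changes of -1.42 ± 0.80, 0.28 ± 0.33 and -0.15 ± 0.47 that did not pass. Each of them overlapped between groups. Kifc1 was at 0.332, 1.68 and 6.13 CPM in Mdr1+ replicates 1, 2 and 3, resting on 2, 36 and 13 counts. In Mdr1- replicates 1, 2 and 3 Kifc1 was at 4.35, 8.21 and 4.92 CPM.

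Genes that serve transport were tested singly, and their calls were counted by list. Of 15 tested kinesin light chain and cargo adaptor genes 0 passed, and with the block 1 rose, Mapk8ip3, an adaptor between kinesin-1 and vesicles (0.38 ± 0.16, edgeR adjusted p = 0.38 without and 0.029 with the block). Over all tested genes 2.22% were called without the block and 5.81% rose with it, so the list lay near the background. The adaptor genes Kidins220 and Trak2 were at 241 ± 28 and 187 ± 32.6 CPM in Mdr1+ and at 221 ± 33.6 and 161 ± 23.0 CPM in Mdr1- cells. Of 24 tested genes of dynein and dynactin, the motor that walks the other way, 1 fell in both fits, Spdl1, which holds dynein at kinetochores in mitosis (-1.85 ± 0.31, edgeR adjusted p = 0.019). That count is near the background of 1.95% lower without and 6.57% lower with the block. Dync1h1, the dynein heavy chain gene, was at 1023 ± 115 and 885 ± 43.1 CPM, and Pafah1b1 and Actr1a, a regulator of dynein and a dynactin subunit, had log2 fold changes of 0.17 ± 0.23 and 0.11 ± 0.15.

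Alpha and beta tubulins form the tracks, and near-identical copies among tubulin genes make single levels uncertain. The list also held the gamma tubulin genes Tubg1 and Tubg2. Of 10 tested tubulin genes 0 passed without the block, and with it Tubb5 and Tubg1 fell and Tuba4a rose, Tubg1 being named after its values were seen. The log2 fold change of Tubg1 was -0.89 without the block (edgeR adjusted p = 0.37) and -0.93 with it (edgeR adjusted p = 0.031). Over all tested genes 12.4% were called with the block, 6.57% lower and 5.81% higher. Tubb5, the listed tubulin with the highest level per kilobase, was at 685 ± 159 CPM in Mdr1+ against 1199 ± 246 CPM in Mdr1- libraries, and Tuba4a at 228 ± 33.5 and 168 ± 28.8 CPM (SD, n = 3 each; edgeR adjusted p = 0.15 and 0.40 without and 0.00049 and 0.010 with the block). Tubb4b was at 33.6 ± 6.14 and 31.6 ± 5.50 CPM. Among markers of other cells, Acta2 of the stromal list was lower in Mdr1+ cells, at 0.0935 ± 0.162 against 4.94 ± 1.27 CPM (edgeR adjusted p = 0.018), and Cdh5, an endothelial marker, was lower without overlap, at 0.377 ± 0.0819 against 2.02 ± 0.346 CPM (edgeR adjusted p = 0.12). Acta2 had 0, 6 and 0 counts in Mdr1+ replicates 1, 2 and 3. Col1a2 went the other way without overlap, at 0.315 ± 0.166 against 0.0660 ± 0.0585 CPM, and was too low to test. Col1a1 was under 3 CPM in every library. The list summed to 117 to 191 and 125 to 136 CPM, nearly all of it Pecam1, which is also made by leukocytes and overlapped between groups. The part of stromal or endothelial cells in the kinesin results was not tested. The epithelial markers Epcam and Krt18 were under 9 CPM in every library, and Krt8 was at 0.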

How the data were processed

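The authors deposited raw read counts per gene symbol in 1 table of 6 libraries. Per the submitters' processing notes TopHat, HTSeq and DESeq2 were used with build mm9. The kit was stranded per the labels' protocols. Neither software versions nor the annotation nor the use of strand in counting is given in the sources used here. HTSeq's 5 classes of unassigned reads were left out, and reads placed at more than 1 site were 67.0% to 73.2% of entries in the 4 libraries of replicates 1 and 2. On the GRCm38 annotation (GENCODE M21), exons of Kif20a, Kif4, Kif22, Kif18a, Kif2a, Kif3c, Kif5b and Kif7 share bases with a gene on the opposite strand, and such reads cannot be told apart here.

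The counts of both replicate 3 libraries stand in another row order than the gene names and were assigned to the names sorted ignoring case. Their Spearman correlations with the other libraries were 0.424 to 0.46 as deposited and 0.926 to 0.962 so ordered.

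Tests used edgeR 4.0.16 (R 4.3.3) on TMM-scaled libraries. After filterByExpr with the groups given, 10897 genes remained for the quasi-likelihood test (robust), whose model held the group alone. P-values are adjusted by Benjamini-Hochberg over those genes, and 0.05 is the threshold. Intervals are 95% intervals of the fit. The script was tested on simulated data. Libraries of the same replicate number had correlations of 0.41, 0.57 and 0.21 across genes in their deviations from the group means of log2 CPM, and each correlated best with its own number. The labels state no pairing. Because each correlation is above 0.1, an alternative fit that blocks on the replicate number is given, while the main fit, its intervals and the permutation tests leave the pairing out. Blocked values are given where calls changed.

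The members, classes and gene lists were chosen with earlier results of these data known. All members are accounted for, and of each list the genes called without the block and the 3 others with the highest mean CPM are named where reported here. Promoters are RefSeq windows (GRCm38.p6), and no coordinates of the counted genes are given because the builds differ. Levels per kilobase use merged exons of protein-coding transcripts in the GENCODE M21 basic set.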

Additional observations from a re-analysis of the deposited data

How the results depend on the processing

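Leaving aside the fit on replicate 3 counts as deposited, all 11 mitotic members kept a negative log2 fold change in every fit run. Of these members 9 were called with DESeq2 size factors, with DESeq2's Wald test and with no filter on low counts. With the replicate block 10 were called, and the counts over all genes were 1349 with the block and 500 with DESeq2's Wald test, against 242. Leaving out 1 library or 1 replicate number gave 0 to 9 mitotic calls, 0 to 9 kinesin calls and 0 to 210 calls over all genes in edgeR, the count of 0 being without replicate 3. In those fits the median of the mitotic members was -2.87 to -2.16 and that of the transport members -0.046 to 0.093. With replicate 3 left in its deposited rows edgeR called 0 genes, 0 kinesins and 0 mitotic members, with 108 genes at an unadjusted p under 0.05, because names and counts then do not match. Apart from the fit on deposited rows, Kif22 and Kif2c each lost their call in 4 of 14 alternative fits. Signs turned only for genes that were never called: Kif13b with DESeq2 size factors (-0.0060) and DESeq2's Wald test (-0.0037), and Kif2a with the block (0.0035). With libraries or replicate numbers left out, in edgeR, the ranges were -0.12 to 0.099 for Kif13b, -0.19 to 0.093 for Kif2a, -0.27 to 0.080 for Kif1b, -0.078 to 0.38 for Kif1c, -0.24 to 0.061 for Kif3b, -0.11 to 0.25 for Kif3c, -0.030 to 0.22 for Kif5b, -0.014 to 0.22 for Kif5c and -0.85 to 0.11 for Kif7. DESeq2 without replicate 3, added after seeing the data, gave -0.0064 for Kif1c, 0.057 for Kif2a and 0.13 for Kif7. The depth of Mdr1+ replicate 3, 2220691 counts, limits genes of few CPM. The causes of lost calls were not tested.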
